A study of Lemna gibba and Lemna japonica and Spirodela polyrhiza with 12 samples.

Results

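Two-strand 22 nt loci outside microRNA hairpins were examined in 4 duckweeds, which are small floating water plants. Members were chosen by measured values of the deposited lists, namely a size call of 22 nt, the length that dominates the reads of a locus, and an assignment to neither strand. They also had to lie on a numbered chromosome and not be named a microRNA hairpin. These criteria picked 3764 loci out of 79572 in all 4 lists. The species were Wolffia australiana (accession Wa8730), Spirodela polyrhiza (Sp9509), Lemna japonica (Lj8627) and Lemna gibba (Lg7742a), each sampled as whole fronds from sterile cultures in 3 biological replicates, with no treatment. Lemna japonica is a hybrid of Lemna minor and Lemna turionifera, and its assembly holds a chromosome set named M and a set named T. Each list pools its 3 replicates, which leaves no replicate spread to measure, and nothing was tested between accessions. Coordinates are on assembly version asm3v1 for Sp9509 and asm202106v1 for the others, and genes at the loci were not looked up. Intervals are 95% binomial intervals by the method of Wilson and cover counting error only, since reads are not known to be separate molecules and loci are not replicates.

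In plants, Dicer-like enzymes cut double-stranded RNA into small interfering RNAs of set sizes. DCL4 makes 21 nt products, DCL2 makes 22 nt products and DCL3 makes the 24 nt RNAs that guide DNA methylation of repeats. Double-stranded RNA arises when an RNA-dependent RNA polymerase copies a transcript, when transcripts of both strands pair, or when an inverted repeat folds back on itself. Loaded on ARGONAUTE1, 22 nt RNAs can start the production of further small RNAs from the transcript they bind. Being 22 nt and two-stranded is a property of the choice of these loci and not a finding.

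Lj8627 had the most loci of the class, 2256 holding 161138 reads, of which 948 lay on M and 1308 on T chromosomes. Wa8730 had 623 loci with 25214 reads, Lg7742a 529 with 45333 reads, and Sp9509 356 with 34590 reads. The class made up 9.09% of the nuclear loci outside hairpins in Lj8627 (95% interval 8.74 to 9.45), 5.83% in Sp9509 (5.27 to 6.45), 5.42% in Lg7742a (4.99 to 5.89) and 1.69% in Wa8730 (1.57 to 1.83). In reads, it held 15.1% of those outside hairpins in Lj8627, against 4.56% in Lg7742a, 1.91% in Wa8730 and 1.62% in Sp9509. The read share of Lj8627 thus stood above its locus share, that of Wa8730 was slightly above, and those of Lg7742a and Sp9509 were below. The value of Lj8627 rests in part on single loci, since a locus on chr7M held 34.2% of the reads of the class and one on chr2T 9.68%.

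Most loci were shallow. The median locus held 19 reads in Sp9509, 11 in Wa8730, 10 in Lj8627 and 8 in Lg7742a, and the smallest listed held 5, 4, 3 and 3 reads in the same order. Loci under 10 reads were 10.7% of the class in Sp9509, but 40.6% in Wa8730, 48.0% in Lj8627 and 55.0% in Lg7742a. With at least 100 reads, 91 loci were left in Lj8627, 52 in Lg7742a, 33 in Wa8730 and 24 in Sp9509. These few held between 65.1% of the reads of the class, in Wa8730, and 84.3%, in Lg7742a, with 76.5% in Sp9509 and 80.0% in Lj8627.

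Among all 22 nt loci outside hairpins, the two-strand ones were the larger part in every list by number: 71.1% in Wa8730 (68.0 to 74.0), 64.2% in Lj8627 (62.6 to 65.8), 59.9% in Sp9509 (55.9 to 63.8) and 59.1% in Lg7742a (55.9 to 62.3). Their share of the 22 nt reads was uneven. They held 61.7% in Lj8627 and 56.8% in Lg7742a, but 25.8% in Wa8730 and 5.32% in Sp9509, where single-strand 22 nt loci held 616081 reads. Among loci with at least 100 reads, two-strand loci were 82.5% of the 63 in Lg7742a (71.4 to 89.96) and 60.3% of the 151 in Lj8627 (52.3 to 67.7). At that depth they were 52.4% of the 63 in Wa8730 (40.3 to 64.2) and 35.3% of the 68 in Sp9509 (25.002 to 47.2). The deep end of the 22 nt class was therefore mostly two-stranded in Lg7742a and mostly single-stranded in Sp9509.

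Against two-strand 21 nt loci of the same list, the class was smaller in every accession. There were 0.848 two-strand 22 nt loci for each two-strand 21 nt locus in Wa8730 (0.762 to 0.943), 0.656 in Lj8627 (0.622 to 0.691), 0.405 in Sp9509 (0.358 to 0.458) and 0.353 in Lg7742a (0.320 to 0.390). At 10 reads or more this ratio was 1.05 in Lj8627 (0.963 to 1.13), 0.646 in Wa8730, 0.393 in Sp9509 and 0.388 in Lg7742a. Set against two-strand 24 nt loci, the ratio was between 0.359 and 0.392 in Lg7742a, Lj8627 and Sp9509, and 0.0224 in Wa8730. At 10 reads or more the direction turned in Lg7742a, to 1.47 (1.20 to 1.79), and in Lj8627 as a whole, to 1.46 (1.34 to 1.601). Sp9509 then had 0.356 and Wa8730 0.0159. The Lj8627 value joins unlike chromosome sets. M had 0.190 over all loci and 0.501 at 10 reads or more (0.441 to 0.568), so the direction did not turn there. T had 1.06 over all loci (0.982 to 1.15) and 10.6 at 10 reads or more.

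Loci with more reads were longer. The shortest locus measured 401 bp in every accession, and the median lay at 422 bp in both Lg7742a and Lj8627, 419 bp in Sp9509 and 418 bp in Wa8730, just above that shortest length. Whether the lists pad a locus on either side of its reads is not stated. Longer than 600 bp were, among loci with fewer than 10 reads, 11 of 1084 in Lj8627, 1 of 253 in Wa8730, 0 of 291 in Lg7742a and 0 of 38 in Sp9509. With 100 reads or more they were 85 of 91 in Lj8627, 28 of 33 in Wa8730, 51 of 52 in Lg7742a and 23 of 24 in Sp9509. Over the whole class, loci longer than 600 bp came to 28.4% in Lg7742a (24.7 to 32.3), 27.5% in Lj8627 (25.7 to 29.4), 24.4% in Sp9509 (20.3 to 29.2) and 12.5% in Wa8730 (10.1 to 15.4).

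**Figure D1:**
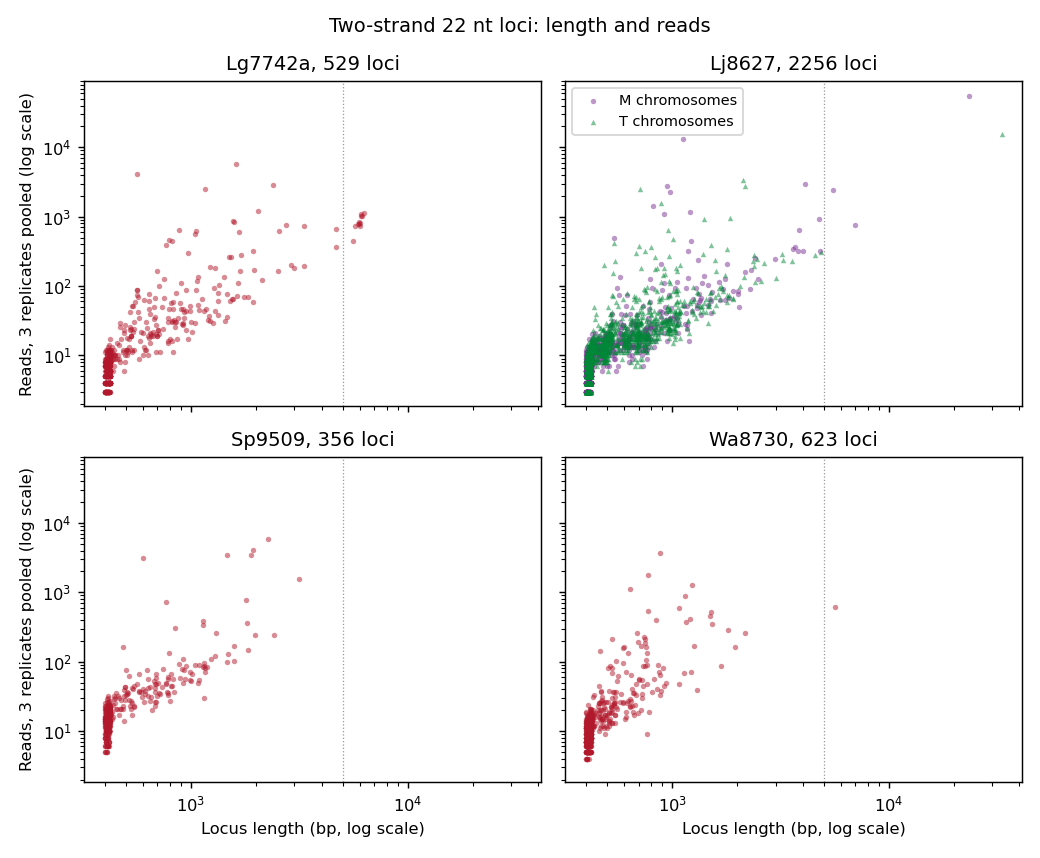
Each point is a two-strand 22 nt locus, with its length in bp on the x axis and its reads, pooled over 3 replicates, on the y axis, both on log scales; the dotted line marks 5000 bp. Most loci stand in a column just above 401 bp, Lg7742a has 11 loci beyond the line, and Lj8627 has 2 loci of 23427 and 33122 bp at the far right.

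Deep loci of the class had a lower median of reads per kb than deep single-strand 22 nt loci, and a larger share of them exceeded 600 bp. Among loci with at least 100 reads, the median density was 165 reads per kb for two-strand and 1086 for single-strand 22 nt loci in Lg7742a. The corresponding medians were 162 and 288 reads per kb in Lj8627, 248 and 1548 in Sp9509, and 280 and 1352 in Wa8730. In all 4 accessions the two-strand median was the lower. Density depends on reads as well as on length. In Sp9509 the 44 deep single-strand loci held 612501 reads, against 26445 in the 24 deep two-strand loci. At the same minimum, loci over 600 bp were 98.1% of the two-strand and 81.8% of the single-strand 22 nt loci in Lg7742a, 93.4% and 70% in Lj8627, 95.8% and 54.5% in Sp9509, and 84.8% and 26.7% in Wa8730. The intervals of the 2 strand classes overlap in Lg7742a, where 11 single-strand loci reached 100 reads. Deep two-strand 21 nt loci had a median of 194 reads per kb in Sp9509, 255 in Lj8627, 267 in Wa8730 and 355 in Lg7742a. Of these, 89.2%, 76.3%, 39.8% and 69.9% exceeded 600 bp in the same order. Deep two-strand 24 nt loci had lower medians than the class, 82.3 reads per kb for 95 loci in Sp9509 and 62.0 for 689 in Wa8730. All of them exceeded 600 bp. Lg7742a and Lj8627 had 1 such locus each. A median density below that of deep single-strand 22 nt loci was thus shared with deep two-strand 21 nt loci in all 4 accessions. Great length was shared less, since fewer of the deep two-strand 21 nt loci than of the class exceeded 600 bp in each accession. In Lg7742a their share was also below that of single-strand 22 nt loci. Two-strand 24 nt loci shared both traits in Sp9509 and Wa8730.

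The longest loci of Lg7742a were alike in length. A total of 11 two-strand 22 nt loci were longer than 5000 bp, and all of them fell between 5586 and 6266 bp with a median of 6000 bp. The next longest members measured 4685 bp, with 77.1 reads per kb, and 4673 bp, with 141 reads per kb, and a wider gap in length lay below these, where the next had 3326 bp. The limit of 5000 bp thus does not mark the widest gap. These 11 lay on 9 chromosomes, with 2 each on chr6 and chr10 and 1 each on chr2, chr3, chr5, chr9, chr12, chr14 and chr20. The group was singled out after its lengths had been seen.

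Lengths in this group spanned a 1.12-fold range and reads a 2.52-fold range. The lowest held 443 reads, on chr10 from 18039513 to 18045098, the median locus 822, and the highest 1116, on chr6 from 27884851 to 27891116. Per kb the 11 loci held 79.3 to 178 reads, a 2.25-fold range. The other 41 loci of the class with at least 100 reads spread from 58.2 to 7170 reads per kb, a 123-fold range. Length enters density, and these 41 were not alike in length, so the ranges are not like for like. The 11 loci together held 9363 reads, which is 20.7% of the reads and 16.8% of the summed length of the class in Lg7742a.

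Other loci of this group were on chr14 from 16364741 to 16370902 with 1010 reads, on chr20 from 11948100 to 11954158 with 1020 reads, and on chr9 from 11019637 to 11025685 with 1077 reads. The 11 loci lay between 41.0% and 99.7% of the way along their chromosomes. In the whole nuclear list of Lg7742a, 15 loci of any class exceeded 5000 bp, so the class supplied 11 of the 15. It supplied 4 of 7 such loci in Lj8627, 0 of 7 in Sp9509 and 1 of 34 in Wa8730. In Sp9509, 5 of the 7 were two-strand 21 nt loci, and in Wa8730, 28 of the 34 were two-strand 24 nt loci. The single long locus of Wa8730, on chr2 from 9083064 to 9088724, measured 5661 bp and held 606 reads or 107 per kb, values within the range of the Lg7742a group for both length and density. Sequences of these loci were not compared. The sources used here do not say how reads matching several places were divided, and its part in these values was not tested.

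Lj8627 held the longest loci of the class in the series. The longest, 33122 bp on chr2T from 28570815 to 28603936, held 15603 reads or 471 per kb. The second, 23427 bp on chr7M from 17083605 to 17107031, held 55159 reads or 2355 per kb, and had the most reads of any locus of the class. A gap of 215 bp separated it from another member of 6977 bp, which had 754 reads or 108 per kb, so the dense locus and its neighbour differed sharply. On chr4M, a locus of 4122 bp with 2956 reads stood 35 bp before one of 5498 bp with 2455 reads. The partners of chr7M and chr2T in the other set had no member as long as their longest: the longest locus of the class was 1656 bp on chr7T and 4002 bp on chr2M, and the highest read counts there were 152 and 321. On chr4T the longest member, with 4838 bp, lay between both chr4M loci in length, and the highest read count was 305. Loci over 2000 bp held 56.3% of the reads of the class in Lj8627, 38.4% in Lg7742a, 22.3% in Sp9509 and 3.42% in Wa8730.

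Reads were concentrated in few loci. The 10 loci with most reads held 69.0% of the reads of the class in Sp9509 (68.5 to 69.5) and 64.0% in Lj8627 (63.8 to 64.2), but 47.2% in Lg7742a (46.7 to 47.6) and 45.3% in Wa8730 (44.7 to 46.0). Reaching 50% of the reads took 13 loci in Wa8730, 12 in Lg7742a, 5 in Sp9509 and 3 in Lj8627. A fixed 10 loci is a larger part of the 356 in Sp9509 than of the 2256 in Lj8627. The top 1% of loci held 71.1% of the reads in Lj8627 and 48.8% in Sp9509, so the order of these accessions turned. On that measure Wa8730 had 39.4% and Lg7742a 38.4%. The chr7M locus alone held 34.2% of the reads in Lj8627, and without it the top 10 held 46.7%. For two-strand 21 nt loci the top 10 held 78.9% in Sp9509 and 46.3% in Lg7742a, above and near the class, but 25.7% in Wa8730 and 20.05% in Lj8627. Two-strand 24 nt loci of the same lists were far more even, with 1.33% to 10.2% of their reads in the top 10. Their lists were longer, with 908 to 27785 loci, and reaching 50% of their reads took 121 to 5025 loci. For single-strand 22 nt loci the top 10 held 67.9% in Lj8627 and 83.7% to 93.6% in the other 3 lists.

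**Figure D2:**
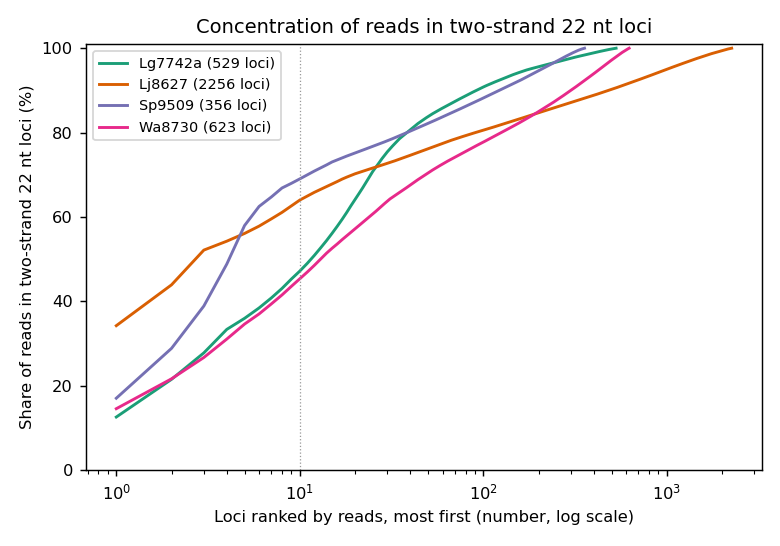
The curves give the cumulative share of reads of the class (y axis, %) against loci ranked by reads (x axis, number on a log scale), with 1 curve per accession and a dotted line at 10 loci. The curve of Lj8627 starts at 34.2%, and at 10 loci Sp9509 and Lj8627 stand at 69.0% and 64.0%, above Lg7742a at 47.2% and Wa8730 at 45.3%.

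In Lg7742a the leading locus lay on chr2 from 15745940 to 15747550 and held 5702 reads over 1611 bp. A locus of 565 bp on chr1, from 12619250 to 12619814, followed with 4051 reads and had the highest density of the accession, 7170 reads per kb. These 2 loci held 12.6% and 8.94% of the reads of the class in the accession. On chr20, 2844 reads fell between 8761144 and 8763529, and on chr10, 2522 reads between 14018018 and 14019173.

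Sp9509 had its deep loci on few chromosomes. Of the 24 loci with at least 100 reads, 8 lay on chr7, 7 on chr15 and 4 on chr1, and these chromosomes held 44.6%, 20.7% and 29.8% of the reads in deep loci. The leading locus, on chr7 from 5553648 to 5555908, held 5893 reads over 2261 bp. Also on chr7, 5 deep loci lay between 3533227 and 3716247, the largest with 3471 reads from 3695061 to 3696522. The densest locus was 603 bp long, on chr15 from 763264 to 763866, with 3161 reads or 5242 per kb. By contrast, the 33 deep loci of Wa8730 and the 52 of Lg7742a were each spread over 17 chromosomes.

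Wa8730 was led by a locus of 875 bp on chr10, from 16297057 to 16297931, with 3670 reads or 4194 per kb. A locus of 776 bp on chr3, from 6267134 to 6267909, followed with 1786 reads, and one of 1238 bp on chr14, from 14241468 to 14242705, with 1274 reads. In Lj8627 the third locus by reads was short and dense: 13269 reads over 1124 bp on chr14M, from 12793423 to 12794546, gave 11805 reads per kb, the highest density of the class in the series among loci with at least 100 reads. The 3 leading loci of Lj8627 therefore differed in form, since the others measured 23427 and 33122 bp.

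Near neighbours of the class were mostly two-strand loci of 21 or 22 nt in 3 of the 4 accessions. The loci listed directly before and after each member were taken where the gap was at most 2 kb, which counts a pair of members from both sides. The intervals for members among neighbours are therefore too narrow. In Lg7742a, 26.7% of 285 such neighbours were themselves members (21.9 to 32.1), against 5.38% of the whole nuclear list, and 36.5% were two-strand 21 nt loci (31.1 to 42.2), against 15.2% of the list. Members were 33.4% of 1223 neighbours in Lj8627 (30.8 to 36.1), against 9.04% of the list, and two-strand 21 nt loci were 29.8%, against 13.8%. In Sp9509 the shares were 15.0% of 294 neighbours for members, against 5.75% of the list, and 42.2% for two-strand 21 nt loci, against 14.2%. Single-strand 21 nt loci were not above their share of the list next to members in these 3 accessions: 11.2% against 14.6% in Lg7742a, 8.67% against 9.34% in Lj8627 and 1.70% against 6.72% in Sp9509.

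Two-strand 24 nt loci were scarce beside members in both Lemna accessions, at 4.91% of neighbours in Lg7742a, against 15.0% of the list, and 8.18% in Lj8627, against 24.97%. The list of Lj8627 joins M and T, where these loci were 31.6% and 13.7% of the nuclear loci outside hairpins, both above 8.18%. In Sp9509 they were 22.4% of neighbours (18.1 to 27.6), against 14.7% of the list, so the lean went the other way. In Wa8730, where two-strand 24 nt loci make up 75.3% of the list, they were 62.4% of 434 neighbours (57.8 to 66.9), while members were 12.9% (10.1 to 16.4), against 1.69% of the list. Next to single-strand 22 nt loci, members came to 12.4% of 89 neighbours in Lg7742a, 27.8% of 471 in Lj8627, 2.86% of 70 in Sp9509 and 12.6% of 103 in Wa8730. Two-strand 21 nt loci were 16.9%, 17.4%, 14.3% and 9.71% of the neighbours of single-strand 22 nt loci in the same order. In Wa8730 they were 4.15% of the neighbours of members, so there alone the share beside single-strand loci was the higher value, from 10 loci.

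**Figure D3:**
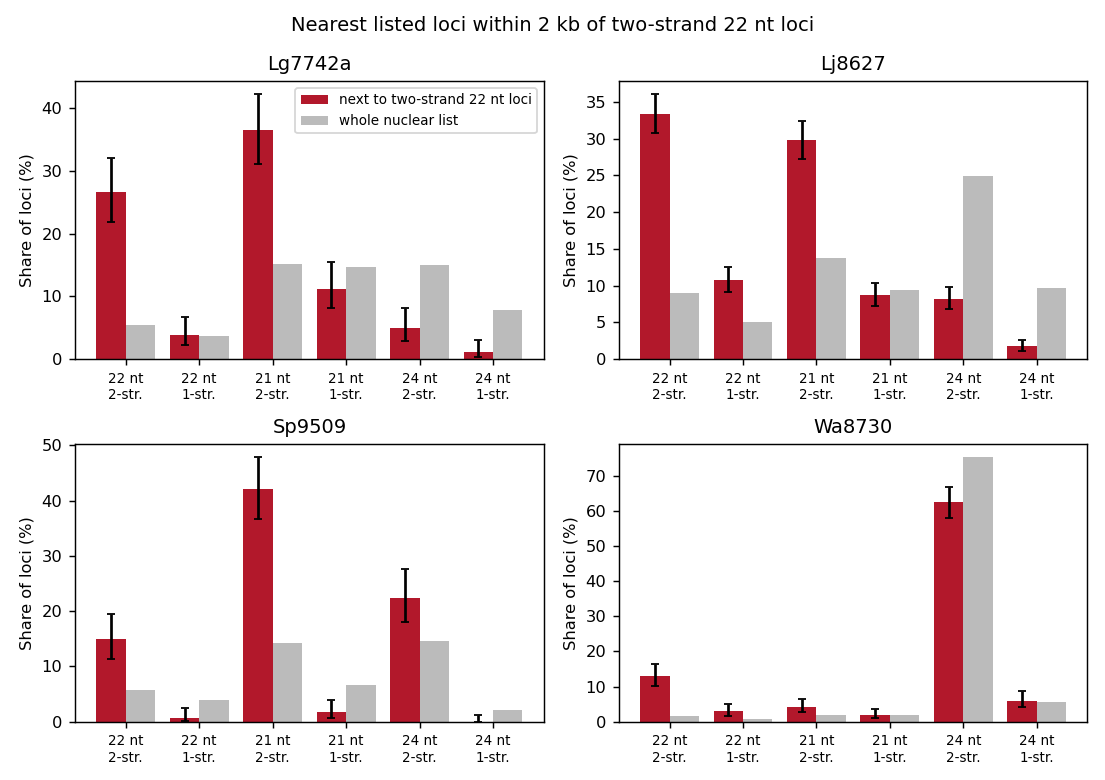
Bars give the share (%) of size and strand classes among listed loci at most 2 kb from a two-strand 22 nt locus (red, with 95% Wilson intervals) and in the whole nuclear list (grey), with 1 panel per accession; 2-str. and 1-str. stand for two-strand and single-strand loci. Members stand above their share of the list in all 4 panels, and two-strand 24 nt loci stand below theirs in all but Sp9509.

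Another member lay within 10 kb for 26.0% of the members in Lj8627 (24.2 to 27.8), 21.6% in Sp9509 (17.7 to 26.2), 19.3% in Lg7742a (16.1 to 22.9) and 13.6% in Wa8730 (11.2 to 16.6). Single-strand 22 nt loci had another of their own class as near for 8.76%, 13.4%, 5.19% and 5.53% in the same order, but they were also sparser along the chromosomes. Two-strand 21 nt loci, which were denser than the class in each list, had 22.4%, 48.3%, 19.9% and 27.8%, which is above the members' share in Sp9509 and Wa8730, near it in Lg7742a and below it in Lj8627. Uninterrupted runs of members, with gaps of at most 2 kb and no other locus between, held 8.67% of the class in Wa8730 (6.70 to 11.1), 11.5% in Sp9509 (8.60 to 15.3), 13.2% in Lg7742a (10.6 to 16.4) and 16.5% in Lj8627 (15.0 to 18.1). Most runs were pairs. Runs of at least 3 numbered 25 of 168 in Lj8627, 5 of 32 in Lg7742a, 2 of 19 in Sp9509 and 2 of 26 in Wa8730. The longest run had 7 loci on chr15M of Lj8627, from 8139163 to 8148033, but held 112 reads in all. A run of 6 loci on chr8T, from 4932768 to 4943814, held 477 reads, and a run of 4 on chr16 of Lg7742a, from 32933 to 38545, held 319.

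Some neighbours within runs were nearly equal in length. Among pairs in which both loci exceeded 600 bp, 12 pairs differed by at most 5% in length: 4 in Lj8627, 3 each in Lg7742a and Sp9509 and 2 in Wa8730. Gaps between the paired loci ran from 6 to 838 bp, and lengths from 619 to 2381 bp. In 11 of the 12 pairs reads differed by at most 1.27-fold as well.

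On chr1 of Sp9509, the locus from 11521848 to 11523746 had 1899 bp and 3436 reads, and its neighbour from 11524585 to 11526513 had 1929 bp and 4089 reads. On chr2 of Lg7742a, a locus of 1571 bp with 838 reads, from 31734099 to 31735669, stood 59 bp before one of 1561 bp with 852 reads. On chr3T of Lj8627, 2169 bp with 2794 reads and 2122 bp with 3399 reads were 21 bp apart. The exception was chr3 of Wa8730, where loci of 772 and 776 bp held 535 and 1786 reads. Such pairs were few, between 0.644 and 3.45 per 100 long loci of the class. Two-strand 24 nt loci gave 1.32 to 2.53 per 100, single-strand 22 nt loci 0 to 5.88 and two-strand 21 nt loci 0 to 1.28. Near-equal neighbours thus also occurred outside the class. Among adjacent pairs of long members, near-equal ones were 3 of 13 in Lg7742a and 4 of 46 in Lj8627. They were 3 of 4 in Sp9509 and 2 of 8 in Wa8730. For two-strand 24 nt loci they were 1 of 4, 7 of 28, 5 of 74 and 189 of 2117 in the same order. Reads were not compared within pairs of other classes. The orientation of paired loci was not examined, since it needs the genome sequence.

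Density along the chromosomes was highest in Lj8627, with 3.00 loci of the class per Mb spanned between a chromosome's start and its last listed locus. It was 2.58 per Mb in Sp9509, 1.77 in Wa8730 and 1.09 in Lg7742a. Chromosomes differed most in Sp9509, where chr15 had 6.37 loci per Mb, from 29 loci, and chr18 had 0.941, from only 5 loci. The extremes were 1.68 per Mb on chr1 (65 loci) and 0.651 on chr21 (7 loci) in Lg7742a, and 2.69 on chr9 (48 loci) and 1.15 on chr11 (20 loci) in Wa8730. In Lj8627 they were 4.53 on chr10T (99 loci) and 1.57 on chr14T (25 loci). The summed length of the class came to between 0.0807% of the length spanned in Lg7742a and 0.187% in Lj8627.

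Counted in windows of 1 Mb, the variance over mean was 2.27 in Lj8627, 1.502 in Lg7742a, 1.41 in Sp9509 and 1.26 in Wa8730, where a Poisson distribution has a value of 1. In Lj8627 it was 1.54 on M and 2.78 on T chromosomes. For two-strand 21 nt loci it was 2.05 in Lj8627, 1.38 in Lg7742a, 2.12 in Sp9509 and 1.47 in Wa8730, above the class in Sp9509 and Wa8730. Two-strand 24 nt loci of Wa8730 gave 19.1 and those of Lj8627 7.89, but these values also grow with the mean number per window. The fullest window of the class was the one from 12000001 to 13000000 on chr4T, with 22 members among 53 loci and 1155 reads in members, against a mean of 2.92 members per window in Lj8627. In Sp9509 the fullest 2 windows were both on chr15, with 11 and 9 members against a mean of 2.44. The outer 20% at each end together held 41.8% of the class in Lg7742a (37.6 to 46.0), 42.3% in Lj8627 (40.3 to 44.4), 43.5% in Sp9509 (38.5 to 48.7) and 44.6% in Wa8730 (40.8 to 48.5). All other nuclear loci had 44.5%, 46.4%, 40.6% and 45.1% there in the same order. In Lj8627 the interval of the class lies below the share of the other loci, and in the other 3 lists it includes it. The list of Lj8627 joins M and T, with 948 and 1308 members but 15800 and 9016 nuclear loci outside hairpins. Position was not compared within each set.

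Within Lj8627, the class was more frequent on T than on M chromosomes by number. It made up 6% of the 15800 nuclear loci outside hairpins on M (5.64 to 6.38) and 14.5% of the 9016 on T (13.8 to 15.2). The counts of 948 loci on M and 1308 on T give an M to T ratio of 0.725 (0.667 to 0.788), and T had more loci in 16 of 21 chromosome pairs. M chromosomes spanned 337 Mb and T chromosomes 415 Mb, so densities were closer, at 2.81 loci per Mb on M and 3.15 on T, and T was denser in 13 of 21 pairs. The lowest ratio was found for pair 13, with 33 loci on chr13M and 88 on chr13T, and the highest for pair 14, with 38 on chr14M and 25 on chr14T.

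**Figure D4:**
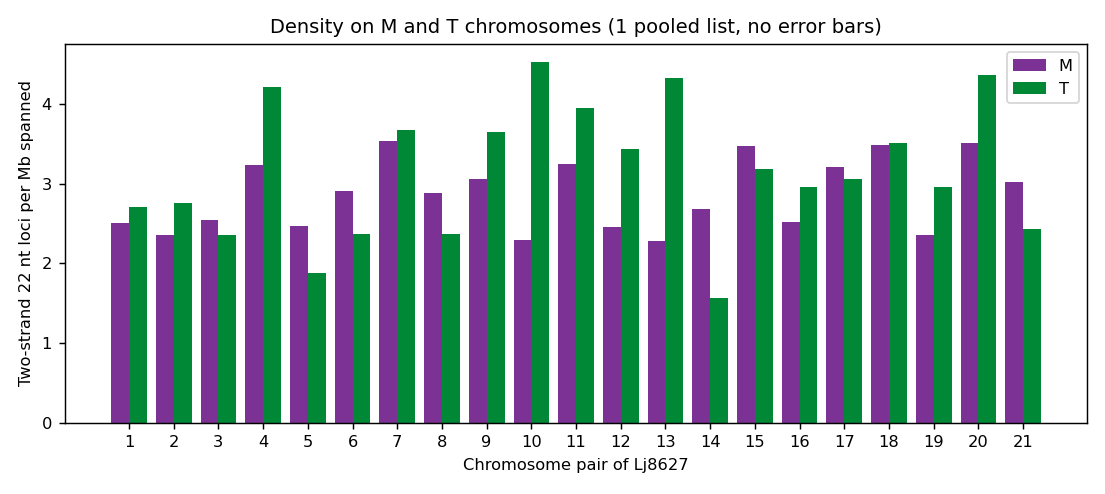
Bars give two-strand 22 nt loci per Mb spanned (y axis) for the M (purple) and T (green) chromosome of each of the 21 pairs of Lj8627, from 1 pooled list without error bars. T stands higher in 13 pairs, most clearly in pairs 10 and 13, and M stands higher in 8, most clearly in pair 14.

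The lean to T grew when shallow loci were left out. With at least 10 reads, 363 loci lay on M against 809 on T, giving a ratio of 0.449 (0.396 to 0.508), and T had more loci and a higher density in 21 of 21 pairs, at 1.08 loci per Mb on M and 1.95 on T. With at least 20 reads it was 0.401 (0.333 to 0.482). From there it moved back, to 0.555 at 50 reads (0.415 to 0.741) and 0.717 at 100 reads, where 38 and 53 loci were left and the interval of 0.474 to 1.08 includes equality. At 500 reads, 12 loci on M and 8 on T remained. The difference in number was thus widest at middling depths and was not seen among the few deepest loci. This course was not particular to the class. Single-strand 22 nt loci had ratios of 0.290 at 10 reads, with T higher in 21 of 21 pairs, 0.335 at 20 and 0.714 at 100. For two-strand 21 nt loci the ratio was also lower at 20 reads, with 0.781, than at 100 reads, with 1.82.

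Median depth and length differed in the same direction. A locus of the class held a median of 7 reads on M and 12.5 on T, and loci under 10 reads were 61.7% on M and 38.1% on T. Median length was 419 bp on M and 471 bp on T, and 19.4% of loci on M (17.0 to 22.05) but 33.4% on T (30.9 to 36.0) were longer than 600 bp. Up to 600 bp the numbers were 764 on M against 871 on T, with a ratio of 0.877 (0.796 to 0.967) by number but 1.08 per Mb spanned, which turns the direction to M. Over 600 and up to 1000 bp they were 116 and 316, a ratio of 0.367 (0.297 to 0.454) or 0.452 per Mb, and over 2000 bp they were 20 and 18.

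Over all loci, two-strand 21 and 24 nt loci were divided differently between M and T, but single-strand 22 nt loci were not. Single-strand 22 nt loci leaned to T as well, with 460 on M, 796 on T and an M to T ratio of 0.578 (0.515 to 0.648). This was lower than the M to T ratio of 0.725 for the class. Two-strand 21 nt loci leaned to M, with 1974 and 1467 and a ratio of 1.35 (1.26 to 1.44), but to T at 10 reads or more, with 501 and 620 and a ratio of 0.808 (0.718 to 0.909). Per Mb spanned that ratio was 0.995, so this lean to T was one of number and not of density. Two-strand 24 nt loci numbered 4998 on M against 1232 on T, and their ratio of 4.06 (3.81 to 4.32) grew to 9.54 at 10 reads or more. For each two-strand 21 nt locus there were 0.480 two-strand 22 nt loci on M (0.444 to 0.519) and 0.892 on T (0.828 to 0.961). At 10 reads or more these ratios were 0.725 on M and 1.305 on T, so two-strand 22 nt loci outnumbered 21 nt loci on T but not on M.

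**Figure D5:**
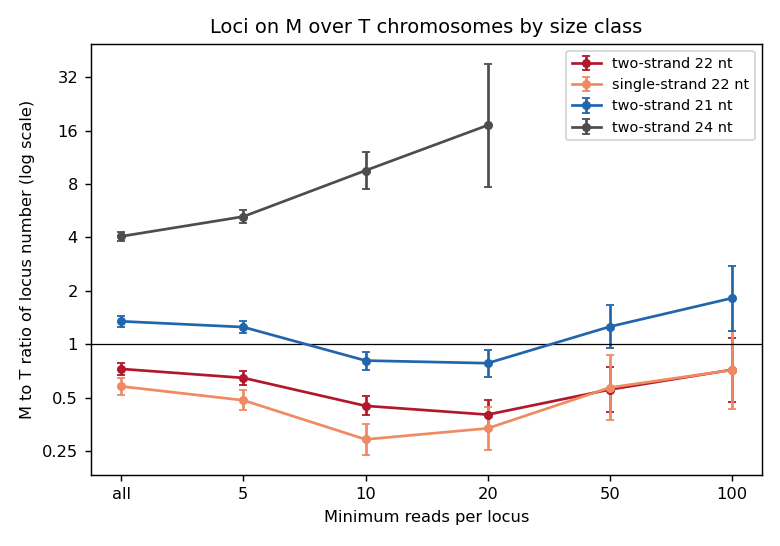
Points give the M to T ratio of locus number (y axis, log scale) at rising minimum reads per locus (x axis), with 95% intervals for counting error, for 4 size and strand classes; minimums that left under 40 loci on both sets together were not drawn. Both 22 nt classes lie below 1 at every minimum drawn, two-strand 24 nt loci lie above 4 throughout, and two-strand 21 nt loci cross 1 more than once.

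Reads gave the opposite picture to numbers, and single loci decided it. Loci of the class held 101308 reads on M against 59830 on T, which is a ratio of 1.69, while 12 of 21 pairs had more reads on T. The chr7M locus of 23427 bp accounted for 54.4% of the M reads and the chr2T locus of 33122 bp for 26.1% of the T reads. Without the first of these the ratio was 0.771, without both it was 1.04, and without the chr14M locus of 1124 bp in addition it was 0.743. With the 10 leading loci left out, 22453 reads remained on M against 35554 on T, giving 0.632. No direction in reads therefore held for M against T as a whole. All nuclear loci outside hairpins held 639717 reads on M and 428521 on T. The class had 15.8% of those on M and 14.0% of those on T. The sources used here do not say how reads that match both sets were placed or how many copies of each set a nucleus holds, and their part in these values was not tested.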

How the data were processed

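Small RNA from 12 frond samples was sequenced in 4 accessions with 3 replicates each. The authors deposited 1 list per accession with a raw count of reads per locus, replicates pooled. The lists name ShortStack as their source, and fastp 0.20.1 and deepTools stand in the submitters' processing notes. The sources used here do not state alignment settings, the placement of reads that match several sites, or thresholds for size, strand and listing. In all, 7197515 reads were listed for Sp9509, 5649845 for Wa8730, 5394332 for Lj8627 and 5005362 for Lg7742a, hairpins included; depth of single samples was not used here.

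Mature and star lines were dropped. Members were counted, measured and compared with single-strand 22 nt, two-strand 21 nt and two-strand 24 nt loci of the same list. Ratios have intervals from the binomial share of their sum. Named loci were, per accession or chromosome set, the 5 with most reads, the 3 longest and the 2 with most reads per kb among those with at least 100 reads; the text gives those a comparison rests on, and other loci, pairs, runs and windows were singled out after their values were seen. The members, lists and rules were chosen with earlier results of these data known. Functions were tested on simulated lists of known makeup. Computations used Python 3.11.15, pandas 2.3.3, numpy 2.4.6, scipy 1.17.1 and matplotlib 3.10.9. Alternatives were other read minimums, length limits, windows, distances and denominators, and leading loci or chromosome pairs left out. No sequence was read, and loci were not placed in genes, since no genome was used.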

Additional observations from a re-analysis of the deposited data

Results flagged for a closer look

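Two-strand 22 nt loci also occurred outside the numbered chromosomes, which the comparisons did not use. Scaffolds of Lj8627 held 72 such loci with 2074 reads, of which the deepest had 317, and scaffolds of Lg7742a held 6 with 141 reads. The chloroplast of Lg7742a had 4 with 93 reads, and the mitochondrion of Sp9509 had 5 with 201 reads. No control samples exist for them, and whether these numbers are high was not tested.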

How the results depend on the processing

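No paired analysis was possible because lists pool their replicates, so no replicate could be left out either. Alternatives differ from the main values in the loci, lengths or windows they count. Most loci hold few reads in lists that start at 3 to 5 reads, so numbers of loci depend on depth, and how firmly accessions differ beyond replicate spread is not known. Lj8627 had the most loci of the class and Wa8730 more than Lg7742a under each alternative run, while Sp9509, with 356 loci in all, had 318 at 10 reads and 240 after scaling, against 238 in Lg7742a under both. Chosen after seeing the data were the ranking without loci over 5000 bp and the 22 to 21 nt ratios at 10 reads.

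At least 10 reads left 238 loci of the class in Lg7742a, 1172 in Lj8627 and 370 in Wa8730, and 238, 1070 and 286 after reads were scaled to the list with the fewest. Per Mb, the first gave 0.491, 1.56 and 1.05. The two-strand share of 22 nt loci at 10 reads was 74.4% for Lg7742a and 69.3% for Lj8627, 65.0% for Sp9509 and 74.3% for Wa8730, and in the same order 82.5%, 60.3%, 35.3% and 52.4% at 100 reads. Loci over 600 bp were 63.0%, 52.0% and 20.8% in Lg7742a, Lj8627 and Wa8730 at 10 reads. Loci over 1000 bp were 13.4%, 8.38%, 8.99% and 2.89% in Lg7742a, Lj8627, Sp9509 and Wa8730.

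In the same order, the top 1% of loci held 38.4%, 71.1%, 48.8% and 39.4% of reads, and the top 10 without the leading locus 41.7%, 46.7%, 63.8% and 37.9%. The top 1% thus placed Lj8627 above Sp9509, while the top 10 placed it below. Without loci over 5000 bp the top 10 of Lg7742a held 56.0%. The variance over mean was 1.43, 1.87, 1.41 and 1.22 in windows of 500 kb, and 1.58, 2.75, 1.86 and 1.55 in windows of 2 Mb. Members with another within 50 kb were 29.1%, 43.2%, 39.9% and 25.8%, compared with 19.3%, 26.0%, 21.6% and 13.6% within 10 kb; within 5 kb they were 22.5% in Lj8627 and 9.47% in Wa8730.

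The M to T ratio of loci was 0.449 at 10 reads and 0.892 per Mb, and between 0.709 and 0.752 when each chromosome pair was left out. In reads the ratio of 1.69 turned to 0.771 without the leading locus and to 0.632 without the 10 leading loci. Leaving out each pair gave 0.760 to 2.47, the lowest without pair 7 and the highest without pair 2. At 10 reads the 22 to 21 nt ratio was 0.725 on M and turned to 1.305 on T.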
